A study of Mus musculus with 28 samples.

Results

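The genes described here are 10 pericentral hepatocyte genes that act in, or answer to, Wnt signalling in mouse liver: Axin2, Rnf43, Znrf3, Nkd1, Lgr5, Tbx3, Glul, Slc1a2, Rhbg and Lect2. They were found by their symbols, which occur in both count tables of the study among 23393 named genes. All 10 were among the 12607 genes that passed the filter on low counts. Whole liver RNA was sequenced from 28 mice of strain 129svj, aged 11 to 13 months, each library carrying a number of its own that is taken here as the animal's number. The 4 groups of 7 were wild type (WT) and Sirt6 heterozygous (HZ) animals that received carboxymethylcellulose at 0.5% (vehicle), and WT and HZ animals that received WY-14643 (WY) at 50 mg/kg in the same vehicle. All animals were gavaged, and their livers were collected after 12 h. WY-14643 activates the nuclear receptor PPARα, a regulator of fatty acid oxidation genes in hepatocytes, and Sirt6 is a nuclear deacylase that acts on histones. Neither the making of the Sirt6 allele nor the sex of the animals is stated in the labels.

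The liver lobule is zoned. Endothelial cells of the central vein secrete Wnt ligands and R-spondins, and the hepatocytes next to that vein answer through beta-catenin and TCF factors with a set of target genes of their own. Some of these targets feed back on the pathway, and others carry out pericentral functions such as glutamine synthesis and the uptake of glutamate and ammonium. In bulk tissue the zones are pooled, so a lower level from fewer cells of a type and one from less RNA per cell cannot be told apart.

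Libraries held 15795201 to 20020078 gene counts. Sirt6 was lower in HZ, at 0.882 to 1.38 CPM (reads of a gene relative to the normalised library size) against 1.91 to 3.53 in WT under vehicle and at 1.29 to 2.29 against 2.27 to 4.18 under WY. Within a treatment, the HZ and WT ranges met only under WY. The summed level of 5 hepatocyte markers, Alb among them, was 44700 to 109000 CPM. Its median was 94600 in WT and 97200 in HZ under vehicle and 71100 and 61000 under WY, where 3 of the 5 markers fell in WT and 4 in HZ. None of 5 lymphocyte markers passed the filter. HZ vehicle animals 30 and 38 and HZ WY animals 14, 15 and 21 stood apart from the other libraries on the second principal component. The share of reads in no gene was 7.85 to 9.08% in vehicle and 6.35 to 7.82% in WY libraries. Vehicle and WY animals also carry different ranges of numbers and were deposited in separate tables, so WY and any difference in handling between these sets cannot be told apart.

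Per length of exon, the 10 genes spanned a wide range of levels. Glul, which encodes glutamine synthetase, the enzyme that fixes ammonium into glutamine, was the highest, with group means of 233 to 275 CPM per kb. Lect2, a secreted hepatokine, came next at 75.6 to 122 CPM per kb. Tbx3 (3.72 to 12.4), Rhbg (4.94 to 7.03), Slc1a2 (1.96 to 6.85) and Rnf43 (2.28 to 4.47) followed, and their order depended on the group. Axin2 had 1.07 to 3.08, overlapping the last 2 of these and above Slc1a2 in HZ WY (3.08 against 1.96). Znrf3 had 1.28 to 1.67 and Nkd1 1.39 to 1.52, and Lgr5 was lowest at 0.499 to 0.837 CPM per kb. In WT vehicle, Tbx3 (5.71 ± 2.09 CPM per kb), Rhbg (4.94 ± 1.12) and Slc1a2 (4.42 ± 1.12) lay close together, each differing from its neighbour in this order by less than either SD (n = 7). Neighbours among the lower genes were closer still: Znrf3 (1.48 ± 0.242), Axin2 (1.42 ± 0.375) and Nkd1 (1.39 ± 0.0958) also differed from the next by less than either SD. The values below are CPM, which compare the same gene between groups, and changes are log2 fold changes ± SE from edgeR's quasi-likelihood test on all 28 libraries, called at a Benjamini-Hochberg adjusted p below 0.05 over all genes tested.

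**Figure D1:**
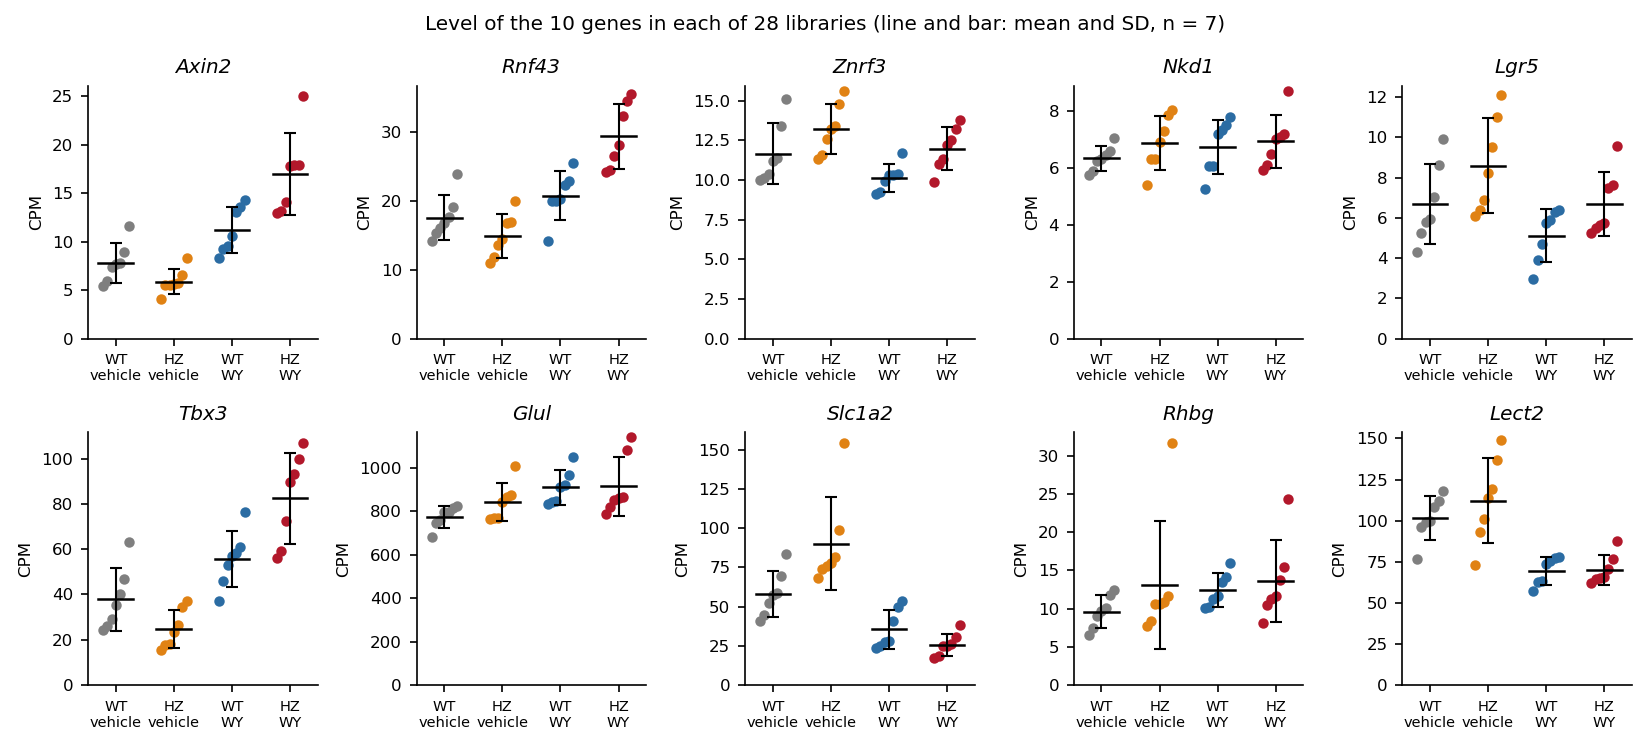
Level of each of the 10 genes in CPM (y axis, from 0) in every library, by group (x axis); points are animals, and lines with bars are the mean and SD of 7. Axin2, Rnf43 and Tbx3 are highest and Slc1a2 lowest in HZ WY, where Axin2 runs from 12.9 to 25.0 CPM against 4.03 to 8.26 CPM in HZ vehicle.

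WY changed 5 of the 10 genes in each genotype, 3 upward and 2 downward. In WT, Axin2, Tbx3 and Glul rose and Slc1a2 and Lect2 fell. In HZ, Axin2, Rnf43 and Tbx3 rose and the same pair fell. Of all genes tested, 54.1% were called in WT (27.4% higher, 26.7% lower) and 55.7% in HZ (29.3% higher, 26.4% lower), so these counts are near the background. The median change of the 10 genes was 0.16 in WT and 0.03 in HZ, against -0.017 and 0.011 over all genes. CPM ranges of vehicle and WY animals were separate for 1 of the 10 genes in WT (27.7% of all genes) and for 4 in HZ (22.5%).

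Axin2 is a scaffold of the complex that destroys beta-catenin and a widely used readout of the pathway (GRCm38 chromosome 11, 108920349 to 108950783, plus strand). Its lowest, median and highest levels were 5.41, 7.66 and 11.6 CPM in WT and 4.03, 5.60 and 8.26 CPM in HZ under vehicle, and 8.29, 10.6 and 14.3 CPM in WT and 12.9, 17.8 and 25.0 CPM in HZ under WY. The WT groups overlapped, whereas every HZ WY animal lay above every HZ vehicle animal and above every vehicle animal of either genotype. WY raised Axin2 by 0.52 ± 0.17 in WT (adjusted p = 0.0106) and by 1.53 ± 0.17 in HZ (adjusted p = 1.98e-08), a 2.88-fold rise. Of its exon bases, 3.796% lie opposite the antisense gene Gm11670, and whether the counting used strand is not stated in the sources used here.

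Rnf43 is a membrane ubiquitin ligase that removes Frizzled receptors from the cell surface (chromosome 11, 87662722 to 87735539, plus strand). Under vehicle it ranged from 14.2 to 23.9 CPM in WT (median 16.7) and 11.0 to 20.0 in HZ (14.5), and under WY from 14.2 to 25.5 in WT (20.3) and 24.1 to 35.4 in HZ (28.1). HZ WY thus lay above HZ vehicle in 7 of 7 animals, and the WT groups covered nearly the same range. The change with WY was 0.97 ± 0.13 in HZ (adjusted p = 4.96e-07), while the value in WT was 0.24 ± 0.13 (adjusted p = 0.126). That WT value was called with a term for the vehicle animals numbered 71 to 78 (0.35, adjusted p = 0.0441), with a trend on transcript length removed (0.32, adjusted p = 0.0435) and without WT vehicle animal 76 (0.33) or WT WY animal 19 (0.31).

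Znrf3, the paralogue of Rnf43 with the same action on Frizzled receptors (chromosome 11, 5276324 to 5444847, minus strand), was not called. Under vehicle its medians were 11.2 CPM in WT and 13.2 in HZ, and under WY 10.3 and 12.2, with all libraries between 9.09 and 15.6 CPM. All 4 groups overlapped. The WY values were -0.20 ± 0.09 in WT (adjusted p = 0.0696) and -0.14 ± 0.09 in HZ (adjusted p = 0.210), of the opposite sign to those of Rnf43. The WT value was called at -0.24 when WT vehicle animal 29 or 76 or WT WY animal 6 was left out.

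Nkd1, which binds Dishevelled and dampens the signal (chromosome 8, 88521354 to 88594884, plus strand), stood between 5.26 and 8.71 CPM in all libraries. Its medians were 6.30 CPM in WT and 6.93 in HZ under vehicle, and 7.20 and 7.03 under WY, so that all groups overlapped. The WY change had a 95% interval of -0.11 to 0.30 in WT and of -0.19 to 0.21 in HZ.

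Lgr5 is a receptor for R-spondins on the hepatocytes nearest the central vein (chromosome 10, 115450311 to 115587780, minus strand). Under vehicle it spanned 4.28 to 9.90 CPM in WT (median 5.96) and 6.08 to 12.1 in HZ (8.21), and under WY 2.96 to 6.38 in WT (5.73) and 5.26 to 9.59 in HZ (5.74). The groups overlapped. Only 54 to 255 reads fell on the gene in a library. The WY values were -0.39 ± 0.20 in WT (adjusted p = 0.103) and -0.36 ± 0.19 in HZ (adjusted p = 0.113). They were called with voom quality weights in WT (-0.44, adjusted p = 0.0434), without WT vehicle animal 37 in WT and without HZ WY animal 5 in HZ (both -0.47).

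Tbx3 is a T-box transcription factor and a beta-catenin target in liver (chromosome 5, 119670669 to 119684724, plus strand). Its lowest, median and highest levels were 24.2, 35.2 and 63.4 CPM in WT and 15.6, 23.3 and 37.0 CPM in HZ under vehicle, and 37.0, 56.9 and 76.6 CPM in WT and 56.2, 89.5 and 107 CPM in HZ under WY. The HZ groups were separate and the WT groups overlapped. WY raised it by 1.74 ± 0.23 in HZ (adjusted p = 4e-07), a 3.34-fold rise and the largest upward change among the 10 genes, and by 0.55 ± 0.22 in WT (adjusted p = 0.0365). The WT call was kept in 20 of 28 fits that each left out 1 library. It was lost without WT vehicle animal 31, 32, 37 or 78 or WT WY animal 6, 10, 24 or 25 (adjusted p = 0.0519 to 0.0918), and without a filter on low counts (adjusted p = 0.0619).

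Glul lies on chromosome 1 (153899944 to 153909723, plus strand). Vehicle animals had 683 to 823 CPM in WT (median 798) and 765 to 1010 in HZ (843), and WY animals 832 to 1050 in WT (914) and 789 to 1140 in HZ (859). The WT groups did not overlap, although the difference was small, and the HZ groups did. The rise with WY was 0.23 ± 0.08 in WT (adjusted p = 0.0161), 1.17-fold, and the value in HZ was 0.12 ± 0.08 (adjusted p = 0.225). With the length trend removed the WT value was 0.17 (adjusted p = 0.0962).

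Slc1a2 encodes GLT-1, a glutamate transporter that in liver belongs to the pericentral hepatocytes (chromosome 2, 102658659 to 102790784, plus strand). Its lowest, median and highest levels were 40.8, 57.5 and 83.4 CPM in WT and 68.3, 77.8 and 154 CPM in HZ under vehicle, and 23.4, 28.1 and 53.5 CPM in WT and 17.4, 25.0 and 38.1 CPM in HZ under WY. Every HZ WY animal lay below every vehicle animal of either genotype, while the WT groups overlapped. Slc1a2 fell by 0.71 ± 0.22 on the log2 scale in WT (adjusted p = 0.00793) and by 1.81 ± 0.22 in HZ (adjusted p = 1.98e-07). With the length trend removed the values were -0.47 in WT (adjusted p = 0.0838) and -1.60 in HZ (adjusted p = 2.09e-06).

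Rhbg is an ammonium transporter of the Rhesus family (chromosome 3, 88242874 to 88254709, minus strand). It shares 61.4% of its exon bases with the readthrough gene Gm38392 on the same strand, so its reads are uncertain. Vehicle levels ran from 6.54 to 12.5 CPM in WT (median 9.63) and 7.76 to 31.7 in HZ (10.6), and WY levels from 10.1 to 16.0 in WT (11.7) and 8.13 to 24.4 in HZ (11.7). The medians were close and the high ends in HZ were single animals, 38 under vehicle and 21 under WY, both among the libraries that stood apart. The WY values were 0.37 ± 0.27 in WT (adjusted p = 0.239) and 0.05 ± 0.26 in HZ (adjusted p = 0.894). In WT the value was called when only the WT groups were fitted (0.37, adjusted p = 0.0353) and with the 5 outlying HZ libraries left out (0.38, adjusted p = 0.0367). In HZ it went to 0.44 (adjusted p = 0.0516) without vehicle animal 38.

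Lect2 lies on chromosome 13 (56542464 to 56548502, minus strand). The vehicle range was 76.7 to 118 CPM in WT (median 100) and 72.8 to 149 in HZ (114), and the WY range 56.9 to 78.0 in WT (73.5) and 62.0 to 87.5 in HZ (65.5). The WY and vehicle ranges overlapped in both genotypes, with 5 of 7 WY animals below all vehicle animals in each. It fell by 0.55 ± 0.12 on the log2 scale in WT (adjusted p = 0.000351) and by 0.68 ± 0.12 in HZ (adjusted p = 2.42e-05). The 5 hepatocyte markers had a median log2 WY change of -0.42 in WT and -0.50 in HZ, and their part in the falls of Slc1a2, Lect2 and the zonated genes named later was not tested.

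The upstream sequences of the 10 genes were examined, because TCF and LEF factors, the nuclear partners of beta-catenin, bind sites with a common core. The letters CTTTG followed by AA, AT, TA or TT were searched on both strands in the 250 bases before each RefSeq start (GRCm38.p6). Matches can overlap only where they lie on opposite strands. Of the 10 genes, Znrf3, Lgr5, Tbx3 and Rhbg had no window in the RefSeq table and the other 6 had one. The letters occurred in 2 of them, Slc1a2 and Lect2, each with a single match, and in windows of 16.8% of all 27025 genes (14.8% of 32851 starts). The Glul window and an Rnf43 window lay wholly within annotated exons, where exons of any gene were counted. The Glul window ended before the first base of the GENCODE gene (153899944), so its exon bases were not those of Glul. The Rnf43 window lay inside the Rnf43 gene. With so few windows, genes that rose and genes that fell cannot be compared. The sequences below are shown for Slc1a2 and Lect2, which fell, and for Axin2, which rose and whose window held no match. Each is the longest stretch of its window outside annotated exons, 5′ to 3′ on the strand of the gene, with the matched letters in capitals. For Slc1a2 this stretch is positions -250 to -83, and other bases outside exons nearer the start are not shown.
Slc1a2 (chr2:102706188-102706355, plus strand): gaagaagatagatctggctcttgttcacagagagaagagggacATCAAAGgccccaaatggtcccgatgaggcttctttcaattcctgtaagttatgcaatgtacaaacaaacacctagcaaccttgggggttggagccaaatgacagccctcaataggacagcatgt
Lect2 (chr13:56548539-56548788, minus strand): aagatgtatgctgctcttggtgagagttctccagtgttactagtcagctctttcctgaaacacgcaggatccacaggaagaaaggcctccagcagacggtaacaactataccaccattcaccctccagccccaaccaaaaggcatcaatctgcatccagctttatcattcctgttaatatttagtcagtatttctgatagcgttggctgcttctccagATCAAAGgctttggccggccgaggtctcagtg
Axin2 (chr11:108920099-108920348, plus strand): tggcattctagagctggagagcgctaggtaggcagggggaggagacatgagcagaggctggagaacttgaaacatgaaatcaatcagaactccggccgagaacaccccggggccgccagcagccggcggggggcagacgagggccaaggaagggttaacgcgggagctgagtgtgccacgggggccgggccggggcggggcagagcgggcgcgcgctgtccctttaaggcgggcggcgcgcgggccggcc
The match in Slc1a2 begins at position -207 and that in Lect2 at -32, counted back from the start. Both are CTTTGAT read on the reverse strand. The RefSeq start of Slc1a2 used here lies inside the GENCODE gene, downstream of its first base (102658659). The Slc1a2 sequence shown, with its match, therefore lies within the gene. The RefSeq starts of Nkd1 and Rnf43 also lie inside their GENCODE genes. A match is a string of letters in a window, and its absence from the Axin2 window says only that these letters are not there.

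**Figure D2:**
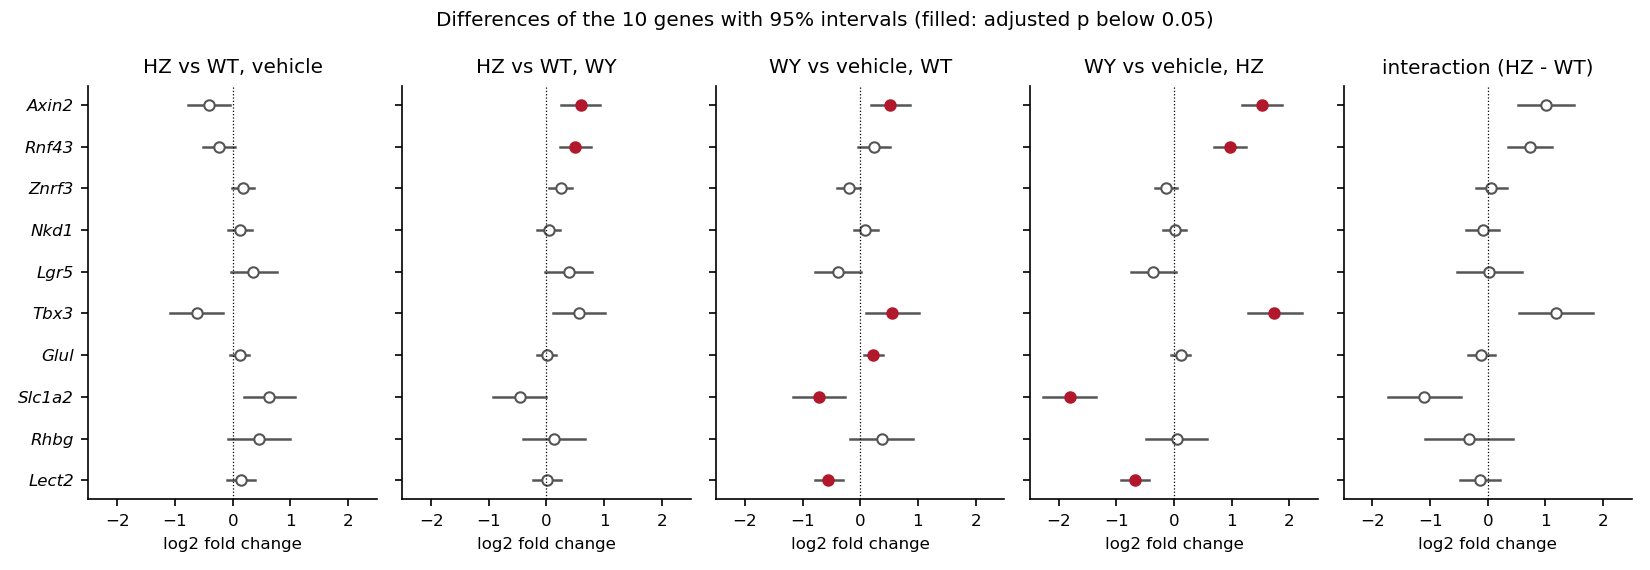
Log2 fold change (x axis) of each of the 10 genes (y axis) in the 5 comparisons, with 95% intervals; filled points have an adjusted p below 0.05. Under WY, Axin2 and Rnf43 are called between the genotypes, and in the interaction the intervals of Axin2, Rnf43, Tbx3 and Slc1a2 exclude 0 without an adjusted p below 0.05.

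Without the agonist, the comparison of HZ with WT asks whether the genotypes differed in these genes. None of the 10 was called by edgeR, against 2.07% of all genes (0.301% higher, 1.77% lower). In the same fit 3 of the 10 had an unadjusted p below 0.05, as did 2256 of the 12607 genes tested. Slc1a2 had 0.63 ± 0.22 (adjusted p = 0.121), Tbx3 -0.62 ± 0.22 (adjusted p = 0.143) and Axin2 -0.41 ± 0.17 (adjusted p = 0.208). DESeq2 called Slc1a2 (0.64, adjusted p = 0.0470) and voom called Tbx3 (-0.76, adjusted p = 0.0269). For no gene of the 10 were the vehicle groups separate (0.27% of all genes). The other 7 genes had values from -0.23 (Rnf43) to 0.46 (Rhbg), and that of Rhbg was 0.06 without HZ vehicle animal 38. The median over the 10 was 0.13, against -0.001 over all genes.

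Under WY the feedback genes Axin2 and Rnf43 were higher in HZ than in WT, against 3.16% of all genes called (1.42% higher, 1.74% lower). Axin2 stood at 17.0 ± 4.20 CPM in HZ WY and 11.2 ± 2.38 in WT WY (SD, n = 7), a difference of 0.60 ± 0.16 (adjusted p = 0.0441 in edgeR), with 4 of 7 HZ animals above all WT animals. Rnf43 stood at 29.3 ± 4.71 and 20.7 ± 3.52 CPM (SD, n = 7), a difference of 0.50 ± 0.13 (adjusted p = 0.0353 in edgeR), with 5 of 7 above. The genotype groups were separate for none of the 10 genes (1.35% of all genes). Tbx3 had 0.57 ± 0.22 (adjusted p = 0.116; 0.63 and adjusted p = 0.0337 with voom), Znrf3 0.25 ± 0.09 (adjusted p = 0.114), Lgr5 0.39 ± 0.20 (adjusted p = 0.232) and Slc1a2 -0.46 ± 0.22 (adjusted p = 0.202). Glul (0.01 ± 0.08), Lect2 (0.01 ± 0.12), Nkd1 (0.04 ± 0.10) and Rhbg (0.13 ± 0.26) were near 0. The median over the 10 genes was 0.19, against 0.009 over all genes.

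Both calls lay close to the threshold. Axin2 kept its call in 15 of 28 fits that each left out 1 library and Rnf43 in 21. Axin2 lost it without WT vehicle animal 74 or 78, WT WY animal 10, 11, 19, 20 or 25, or HZ WY animal 2, 5, 14, 15, 17 or 21 (adjusted p = 0.0503 to 0.105). Rnf43 lost it without WT WY animal 6, 10, 11 or 19 or HZ WY animal 5, 17 or 21 (adjusted p = 0.0538 to 0.0896). Without the 5 HZ libraries that stood apart the differences were 0.73 for Axin2 (adjusted p = 0.0709) and 0.61 for Rnf43 (adjusted p = 0.0595). The 8 macrophage markers summed to 176 to 276 CPM in the WT and 197 to 551 CPM in the HZ animals under WY, and to 251 to 329 CPM and 247 to 517 CPM under vehicle. These ranges overlapped, the median log2 difference of HZ against WT was 0.70 under WY and 0.44 under vehicle, and 0 of 8 were called in edgeR under either treatment. The 4 neutrophil and monocyte markers summed to 2.21 to 4.11 CPM in these WT and 2.89 to 19.7 CPM in these HZ animals. None of these markers was at 0 throughout a group, and their part in the difference was not tested.

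Levels of circadian clock genes varied between the animals. A clock score, the mean log2 CPM of 8 genes such as Dbp and Per2 minus that of 4 genes such as Arntl, spanned 1.53 to 4.27 (median 3.23) in WT WY animals but 0.17 to 3.15 (1.47) in HZ WY animals. In vehicle animals it ran from 1.07 to 4.50 in WT (2.62) and from 2.03 to 4.03 in HZ (3.35). The HZ WY animals with the lowest scores, 5 at 0.17 and 2 at 0.24, had the highest Tbx3 levels of all libraries, and animal 2 had the highest Axin2. In WT vehicle the lowest score, 1.07 in animal 29, went with the highest Axin2 and Tbx3 of that group. In the remaining groups this held in part or not at all. The lowest score of WT WY, 1.53 in animal 6, went with 13.0 CPM of Axin2 and 58.3 CPM of Tbx3, below the highest of that group (14.3 and 76.6 CPM). In HZ vehicle, animal 71 had the lowest score and the highest Axin2, but not the highest Tbx3 (34.3 against 37.0 CPM). The score ranges of the groups overlapped, and the difference in score was not tested. With the score as a covariate the HZ against WT difference under WY was 0.24 ± 0.14 for Axin2 (adjusted p = 0.262), 0.34 ± 0.14 for Rnf43 (adjusted p = 0.125) and 0.17 ± 0.20 for Tbx3 (adjusted p = 0.627). The WY changes in HZ remained called with it, at 1.08 ± 0.15 for Axin2 (adjusted p = 2.51e-06), 0.78 ± 0.15 for Rnf43, 1.26 ± 0.21 for Tbx3 and -1.62 ± 0.28 for Slc1a2.

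**Figure D3:**
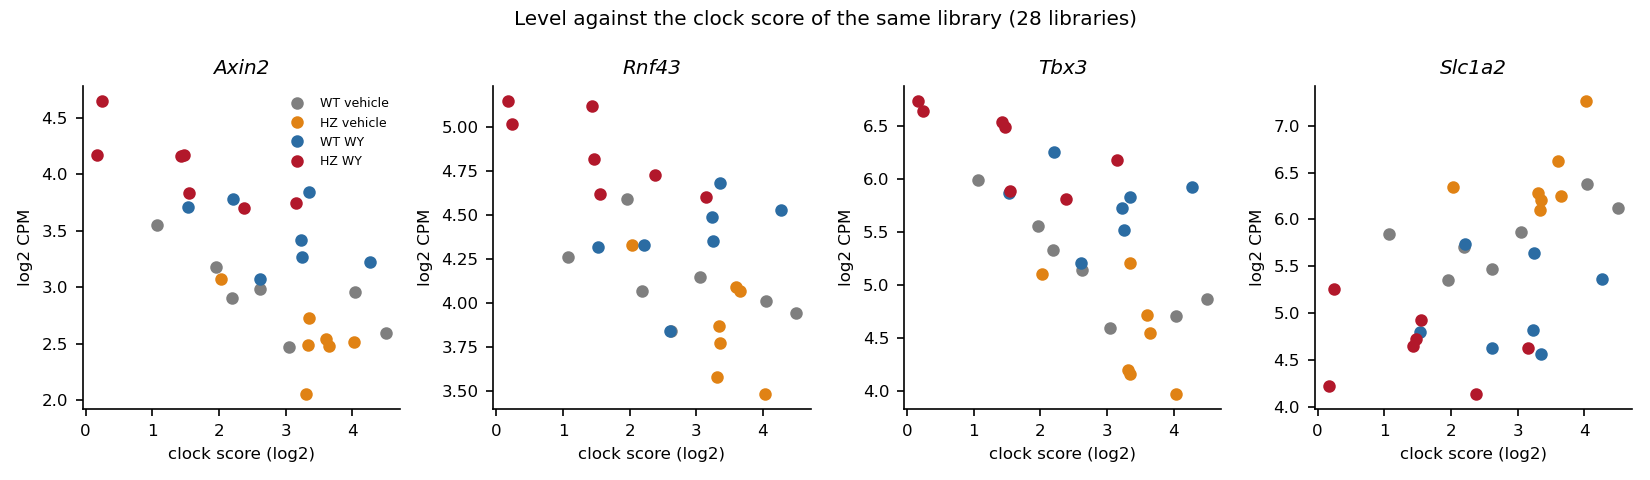
Log2 CPM of Axin2, Rnf43, Tbx3 and Slc1a2 (y axes) against the clock score of the same library (x axis, log2 units); points are the 28 libraries, coloured by group. The HZ WY animals with scores of 0.17 and 0.24 sit at the top for Tbx3, and HZ WY scores reach only 3.15 while WT WY scores reach 4.27.

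The interaction asks whether WY changed a gene more in HZ than in WT. It shares libraries with every other comparison, and the values above enter it directly. It was called for 0% of all genes in edgeR (1182 at an unadjusted p below 0.05; 3 with DESeq2 and 1 with voom), the 10 genes included. The differences between the WY changes were 1.01 ± 0.24 for Axin2 (unadjusted p = 0.000244, adjusted p = 0.301 in edgeR), 0.73 ± 0.19 for Rnf43 (0.000517 and 0.301), 1.19 ± 0.31 for Tbx3 (0.000799 and 0.325) and -1.10 ± 0.31 for Slc1a2 (0.00155 and 0.325). In each of these 4 genes the HZ vehicle mean lay on one side of the WT vehicle mean and the HZ WY mean on the other side of the WT WY mean. With the clock score as a covariate the values were 0.51 ± 0.20, 0.51 ± 0.20, 0.61 ± 0.29 and -0.91 ± 0.36. The other 6 genes lay between -0.33 (Rhbg) and 0.06 (Znrf3). The median of the 10 was -0.03, against 0.019 over all genes.

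Within groups, the 10 genes did not vary as a single block. Over the 28 libraries, with each group centred on its mean, Axin2 and Tbx3 had a Pearson r of 0.78, Rnf43 and Tbx3 0.63, and Axin2 and Rnf43 0.58. A second set held Glul with Rhbg (0.65), Glul with Nkd1 (0.57) and Nkd1 with Rhbg (0.41). Glul with Slc1a2, outside these sets, also had 0.41. Rhbg was highest in HZ vehicle animal 38 (31.7 CPM) and HZ WY animal 21 (24.4 CPM), both among the libraries that stood apart. Their Glul levels were 1010 and 1080 CPM, and the part of these libraries in the values of Rhbg was not tested. Between the sets the values were lower, at -0.12 (Tbx3 and Rhbg) to 0.33 (Axin2 and Nkd1). Znrf3 had no r above 0.18 with another of the 10 and Lgr5 none above 0.23, and Tbx3 and Lect2 had -0.40. These values describe libraries that also differ in depth and clock score, and the sets were picked after the values were seen.

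**Figure D4:**
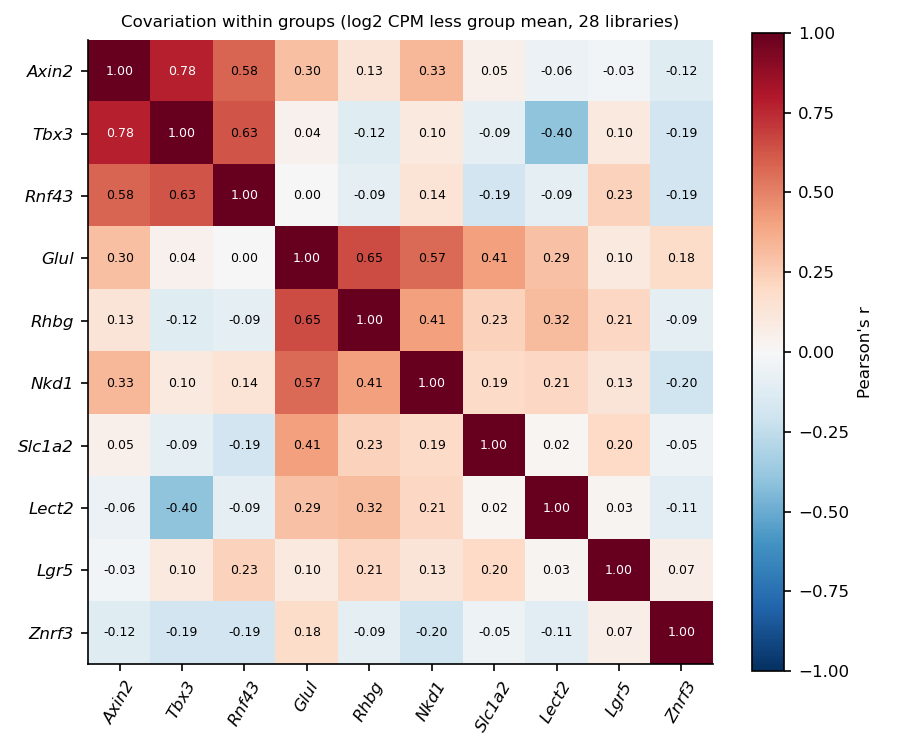
Pearson's r between the 10 genes (both axes) over 28 libraries, from log2 CPM less the mean of the group; red is positive and blue negative, with the value in each cell. Axin2, Tbx3 and Rnf43 form a set with 0.58 to 0.78, and Glul, Rhbg and Nkd1 form another with 0.41 to 0.65. Glul with Slc1a2 also has 0.41.

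By the same measure, the genes most like each member among 12606 others were mostly outside the group. Tbx3 was the gene most like Axin2, followed by Ddx24 (0.76) and Sowahb (0.74), while the nearest to Tbx3 were Ext2 (0.82), Dpp9 (0.80) and Arhgef18 (0.80), with Axin2 at rank 6. Rnf43 was most like Lmnb2 (0.76), Parp1 (0.76) and Cog4 (0.72). Glul was most like Meg3 (0.72), Gulo (0.71) and Col6a2 (0.70), with Rhbg at rank 6. Gulo, a gene of the ascorbate pathway, is itself pericentral. Rhbg was most like Cyp2d12, Slc13a3 and Sult1e1 (each 0.81), and Lect2 was most like Cyp2c50 (0.79), Akr1c6 (0.78) and Cyp2c37 (0.76). The nearest genes were Inpp5e for Lgr5 (0.80), Gmcl1 for Slc1a2 (0.75), Arid3b for Znrf3 (0.72) and Tgfb3 for Nkd1 (0.66).

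The ligands of the pathway were sparsely counted in whole liver. The central vein products Wnt2 (3.43 to 4.07 CPM as group means), Wnt9b (1.49 to 1.69) and Rspo3 (7.17 to 8.04) were not called in any comparison. Of 9 tested genes of Wnt ligands and their secretion, 3 rose with WY in each genotype and 1 fell. Wnt5a, a ligand best known for signalling without beta-catenin, rose by 1.08 ± 0.21 in WT and 1.70 ± 0.21 in HZ, and Wnt5b by 0.73 ± 0.17 and 0.99 ± 0.17. Wnt4 rose by 0.83 ± 0.17 and 0.60 ± 0.17. The ligand carrier Wls fell in WT (-0.37 ± 0.12) and the acyltransferase Porcn in HZ (-0.67 ± 0.18).

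Of 12 receptors tested, 2 rose and 5 fell with WY in WT, and 5 rose and 3 fell in HZ. These counts, and those of the other pathway and zonation lists, stand against 54.1% of all genes called in WT and 55.7% in HZ, and nothing particular to a list is read from them. Lgr4, the R-spondin receptor found across the lobule, fell by 1.01 ± 0.07 in WT and by 1.10 ± 0.07 in HZ on the log2 scale, from 91.0 and 106 CPM under vehicle to 45.1 and 49.2 CPM. The co-receptor Lrp5 rose by 0.48 ± 0.09 and 0.76 ± 0.09, and Fzd7 by 0.60 ± 0.14 and 1.08 ± 0.14. Fzd5 fell in both, with -0.82 ± 0.13 in WT and -0.36 ± 0.13 in HZ.

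Of 17 genes of the cytoplasmic relay, 2 rose and 7 fell with WY in WT, and 3 rose and 7 fell in HZ. Ctnnb1, beta-catenin itself, fell in both genotypes (-0.18 ± 0.04 in WT and -0.26 ± 0.04 in HZ), as did the destruction complex scaffold Apc (-0.68 ± 0.09 and -0.52 ± 0.09). The tankyrase genes Tnks (-0.69 ± 0.08 in WT) and Tnks2 (-0.41 ± 0.06), whose products mark Axin proteins for degradation, fell as well, and Gsk3a rose (0.41 ± 0.06). Tnks was the only gene of these pathway lists called between genotypes, higher in HZ under WY by 0.36 ± 0.08 (adjusted p = 0.0207).

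Among 9 nuclear factors, 4 rose and 1 fell in each genotype. Bcl9l rose by 0.43 ± 0.08 in WT and 0.68 ± 0.08 in HZ. Ctbp1 rose by 0.43 ± 0.05 and 0.45 ± 0.05, and Tcf7l1 by 0.41 ± 0.14 and 0.62 ± 0.14. Tle1 fell (-0.45 ± 0.09 and -0.55 ± 0.09). Of 4 tested extracellular inhibitors only Kremen1 was called, in HZ (0.23 ± 0.07), and Notum, a secreted Wnt deacylase, had 0.31 ± 0.14 in WT (adjusted p = 0.0622). Of 9 other Wnt target genes, 2 rose and 1 fell in WT, and 4 rose and 1 fell in HZ. Sp5, a direct target, rose by 0.93 ± 0.23 in WT and 1.43 ± 0.24 in HZ from levels of 1.07 to 1.41 CPM, and Ccnd1, which encodes cyclin D1, rose in HZ by 1.41 ± 0.38. Sox9 rose in HZ by 0.70 ± 0.19 and Tnfrsf19 fell there by 0.98 ± 0.31 on the log2 scale. Myc rose by 1.85 ± 0.38 in WT and by 1.19 ± 0.39 in HZ, and in WT WY its SD exceeded its mean (14.7 ± 16.4 CPM, n = 7).

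The WY changes of the 10 genes were set beside those of other hepatocyte genes with a known zone. Of 15 other pericentral genes, 3 rose and 7 fell in WT and 2 rose and 9 fell in HZ, with medians of -0.20 and -0.51. The pericentral cytochrome P450 gene Cyp2e1, also 1 of the 5 hepatocyte markers, fell in both genotypes (-0.43 ± 0.10 in WT and -0.75 ± 0.10 in HZ), as did the receptor gene Ahr (-0.94 ± 0.12 and -1.17 ± 0.12) and Rgn (-0.57 ± 0.10 and -0.66 ± 0.10). Of 14 periportal genes, none rose and 11 fell in each genotype, with medians of -0.87 and -1.03. Cps1, the entry enzyme of the urea cycle, had -2.03 ± 0.17 in WT and -1.95 ± 0.17 in HZ, and the glutaminase gene Gls2 had -1.48 ± 0.14 and -1.35 ± 0.14. Hal had -1.13 ± 0.13 and -0.82 ± 0.13, and Agxt2l1 had -2.72 ± 0.33 and -2.45 ± 0.32. The difference between these lists was not tested, and none of their genes was called between genotypes. The counts of Ass1, in the periportal list, were under 1 CPM in every group mean and are uncertain.

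**Figure D5:**
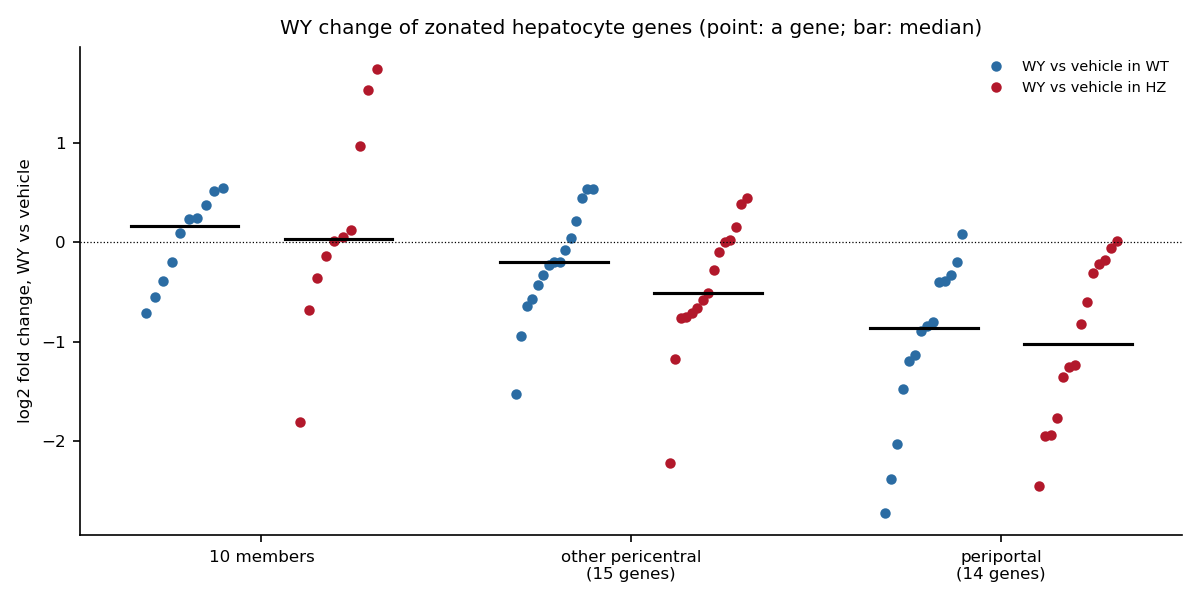
Log2 fold change of WY against vehicle (y axis) for the 10 genes, 15 other pericentral and 14 periportal genes (x axis), in WT (blue) and HZ (red); points are genes and bars medians. The medians are 0.16 and 0.03 for the 10 genes, -0.20 and -0.51 for the other pericentral genes and -0.87 and -1.03 for the periportal genes.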

How the data were processed

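The authors deposited unnormalized read counts, 1 row per gene symbol, in a table of 14 vehicle and a table of 14 WY libraries. Per the submitters' processing notes, STAR 2.5.0a, HTSeq 0.6.1p1, DESeq2 1.18.1 and mm10 were used; the sources used here name no annotation and no strand setting. HTSeq summary rows and gene names turned into dates (25 and 27 rows) were left out. Reads not placed uniquely were not counted to genes, which lowers genes with near-identical copies.

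Genes were filtered with filterByExpr by the 4 groups, scaled by TMM and fitted in edgeR 4.0.16 (R 4.3.3) with robust quasi-likelihood on all 28 libraries (24 residual degrees of freedom), a mean per group and 5 contrasts. The SE was taken as the size of the log2 fold change divided by the square root of F. Log2 CPM used a prior count of 2. Lengths and positions are from GENCODE M21. Replicates differed by more than counting error (chi-square per degree of freedom 10.9 to 116 between pairs). Whether the animals came from separate litters is not given, and the p-values weigh differences of group means against the spread between these libraries.

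The members and gene lists were chosen with earlier results of these data known. Named genes are the members, up to 4 called genes per list and comparison by smallest p, otherwise up to 2 of highest level, and the 3 genes with the highest r per member. The central vein ligands were named for their role. A gene that the rule names is not reported here. Alternatives were DESeq2 size factors, DESeq2 1.42.0, voom quality weights (limma 3.58.1), other filters, only the groups compared, a term for animals 71 to 78, a length trend and each library left out. Leaving out the 5 HZ libraries and the clock score were chosen after seeing the data.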

Additional observations from a re-analysis of the deposited data

Results flagged for a closer look

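In 3 of 40 groups of 7 values, a single animal lay far from the others by Dixon's test at the 95% level, which chance alone gives in about 1 of 20 groups. Axin2 stood at 25.0 CPM in HZ WY animal 2, with the next animal at 17.9 CPM. Slc1a2 stood at 154 CPM in HZ vehicle animal 38, with the next at 99.0 CPM, and Rhbg stood at 31.7 CPM in the same animal, with the next at 11.7 CPM. Animal 38 is one of the 5 HZ libraries that stood apart. Without it the interaction of Rhbg went from -0.33 to 0.07. The WY change of Slc1a2 in HZ stayed between -1.93 and -1.62 whichever library was left out, and that of Axin2 between 1.41 and 1.63.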

How the results depend on the processing

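No paired analysis was possible because no animal number occurs in more than 1 group. In HZ, WY called the same number of the 10 genes, 5, under all 10 alternatives, and in WT it called 4 to 6. Between genotypes under vehicle DESeq2 and voom called 1 of the 10 each. Under WY 0 were called without a filter (Axin2 adjusted p = 0.0688, Rnf43 0.0580), with the length trend removed (0.0601, 0.0525), without the 5 HZ libraries or with the clock score, and 0 to 2 when 1 library was left out.

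Over all genes the 261 calls under vehicle became 508 with DESeq2, 729 with voom, 146 without a filter, 69 with the term for animals 71 to 78, 110 with the clock score, 0 with only the vehicle groups or without the 5 HZ libraries, and 43 to 650 when 1 library was left out. The 398 under WY became 683 with DESeq2 size factors, 1116 with DESeq2, 968 with voom, 153 without a filter, 727 at a mean of at least 1 CPM, 48 without the 5 HZ libraries, 1178 with the clock score and 74 to 977 when 1 library was left out. Interaction calls were 3 with DESeq2, 1 with voom and 0 to 1 when 1 library was left out. The cause was not tested.

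Signs turned only in comparisons where the gene was not called. Between genotypes under WY, Glul went from 0.01 to -0.01 (DESeq2 size factors, DESeq2), -0.04 (voom), 0.00 (mean of at least 1 CPM) and -0.02 (clock score), Lect2 to 0.00 (size factors), -0.01 (DESeq2) and -0.02 (voom), Rhbg to -0.07 (voom) and -0.14 (5 HZ libraries out), and Nkd1 to 0.00 (clock score). For WY in HZ, Nkd1 went from 0.01 to -0.01 (both DESeq2 settings), -0.03 (mean filter, length trend) and -0.04 (clock score), and Rhbg to 0.00 (mean filter) and -0.10 (length trend). In the interaction Lgr5 went from 0.02 to -0.01 (mean filter), -0.06 (animals 71 to 78), -0.03 (length trend) and -0.16 (clock score), and without the 5 HZ libraries Znrf3 had -0.02 and Nkd1 0.06. With 1 library left out the ranges that crossed 0 were, under WY, -0.05 to 0.04 for Glul, -0.05 to 0.04 for Lect2, -0.08 to 0.22 for Rhbg and -0.03 to 0.08 for Nkd1; for WY in HZ, -0.05 to 0.05 for Nkd1 and -0.16 to 0.44 for Rhbg; and in the interaction, -0.10 to 0.13 for Lgr5, -0.01 to 0.11 for Znrf3 and -0.53 to 0.07 for Rhbg. Ranked by Spearman's rho, 1 of the 3 genes most like Slc1a2 and 1 of those most like Rhbg stayed.

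The members with the fewest reads in any library were Lgr5 (54), Axin2 (68) and Nkd1 (88). Every group mean of the 10 genes moved by less than 1 SD with DESeq2 size factors.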
